A study of Mus musculus with 43 samples.

Results

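The genes described here encode 10 chains of receptors for cytokines that lymphocytes secrete: Ifngr1, Ifngr2, Il4ra, Il13ra1, Il10ra, Il10rb, Il17ra, Il17rc, Il2rg and Il21r. They were chosen by name, as receptors through which glia could sense T cell cytokines, and are 10 of the 55416 genes counted in each library. The study asked whether glia of the mouse cerebral cortex depend on lymphocytes. It sequenced RNA of 43 samples, each of 1 cell type from 1 mouse at 3 months of age. The labels number 6 littermate pairs, and samples of 1 pair and genotype were taken as 1 mouse that gave several cell types. Rag2-/- mice, which form no T or B cells, descended from B6.Cg-Rag2tm1.1Cgn/J mice crossed to C57BL/6J, and each was matched with an immunocompetent littermate, Rag2+/- in pairs 1, 2, 3 and 5 and Rag2+/+ in pairs 4 and 6. Microglia, OPCs (oligodendrocyte precursor cells), oligodendrocytes and astrocytes were bound one after another to plates with antibodies against CD45, PDGFRα, GalC and HepaCAM. Astrocytes and microglia gave 6 control and 6 Rag2-/- libraries each, OPCs 6 and 5, and oligodendrocytes 4 and 4, the last from pairs 1, 3, 5 and 6. Both sexes were used, and in pair 6 the control was male and the Rag2-/- mouse female.

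Each of these receptors needs more than 1 chain to signal. IFN-γ binds IFNGR1, which pairs with IFNGR2, and IL-10 binds IL10RA, which pairs with IL10RB, a chain that other cytokines share. IL-4 acts through IL4RA with either the common γ chain, encoded by Il2rg, or IL13RA1, the chain that also takes IL-13. IL-21 acts through IL21R with the common γ chain, and IL-17A through IL17RA with IL17RC. The interferon and interleukin receptors of this group signal through JAK kinases and STAT factors, whereas the IL-17 receptor signals through the adaptor ACT1 to NF-κB. Innate lymphoid and myeloid cells can make some of the same ligands, so a mouse without T and B cells does not lack all of them.

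Counts on genes ranged from 6499417 to 23118497 per library, with a median of 10447042. The levels below are CPM, counts scaled to a common library size, after normalization by TMM, a method that corrects for a few very abundant genes, and they compare 1 gene between libraries. Where 2 genes were compared, the level was also divided by exon length, as RPKM, reads scaled by kilobases of exon and by depth. Each cell type was highest in its own marker list, but the other glia also held microglia marker RNA. The summed CPM of 8 microglia markers was 8120.0 to 10286 in microglia libraries, 73.6 to 304 in astrocyte libraries, 176 to 890.4 in OPC libraries and 327 to 1213 in oligodendrocyte libraries, and the highest library of each of the last 3 types came from pair 3, under both genotypes. Rag2 itself had 0 to 4 counts per library, so that it could not check the genotype labels. Cd3e, a T cell receptor subunit, had 8 to 39 counts in each control microglia library and 0 in each Rag2-/- one. The paper states that the CD45 antibody can also bind peripheral macrophages, which perfusion reduced. A list of 6 border macrophage genes summed to 341 to 832 CPM in control microglia libraries and 395 to 713 CPM in Rag2-/- ones. The part of such cells in the microglia levels below was not tested. Libraries of 1 cell type shared a sequencing lane, so lane and cell type cannot be told apart, and in these bulk samples fewer cells of a type and less RNA per cell cannot be told apart.

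Microglia libraries held the most RNA of 9 of the 10 receptor chains, and Il17rc was the exception. For the 9, the lowest of 12 microglia libraries lay above the highest library of every other cell type, by 2.20 times (Ifngr1 against oligodendrocytes) to 42.8 times (Il4ra against astrocytes). How many of all genes separated in this way was not counted. In control mice the quasi-likelihood test of edgeR, with p-values adjusted by the method of Benjamini and Hochberg, called 10 of 10 receptor chains higher in microglia than in oligodendrocytes, where it called 29% of all tested genes higher. It called 9 of 10 higher than in OPCs, beside 28.4% of all genes, and 9 higher and 1 lower than in astrocytes, beside 29.8% and 31.3%. In Rag2-/- mice 9 of 10 were called higher in microglia than in oligodendrocytes (30.7% of all genes), 9 than in OPCs (27%) and 9 than in astrocytes (28.4%), with Il17rc again called lower than in astrocytes (31.7%). The median log2 difference of the 10 chains in control mice was 4.12 against oligodendrocytes, 4.02 against OPCs and 4.46 against astrocytes, where the median of all genes was 0.08, -0.09 and -0.05. The split of calls over all genes depended on the scaling. By total gene counts, 69.35% of called genes were higher in microglia than in oligodendrocytes of control mice in place of 49.29%, and 71.44% in place of 51.96% in Rag2-/- mice. With mitochondrially encoded genes left out of the totals, 30.61% were higher than in OPCs in place of 46.70% in control mice and 30.52% in place of 45.74% in Rag2-/- mice. The calls of the 9 chains held under both scalings.

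**Figure D1:**
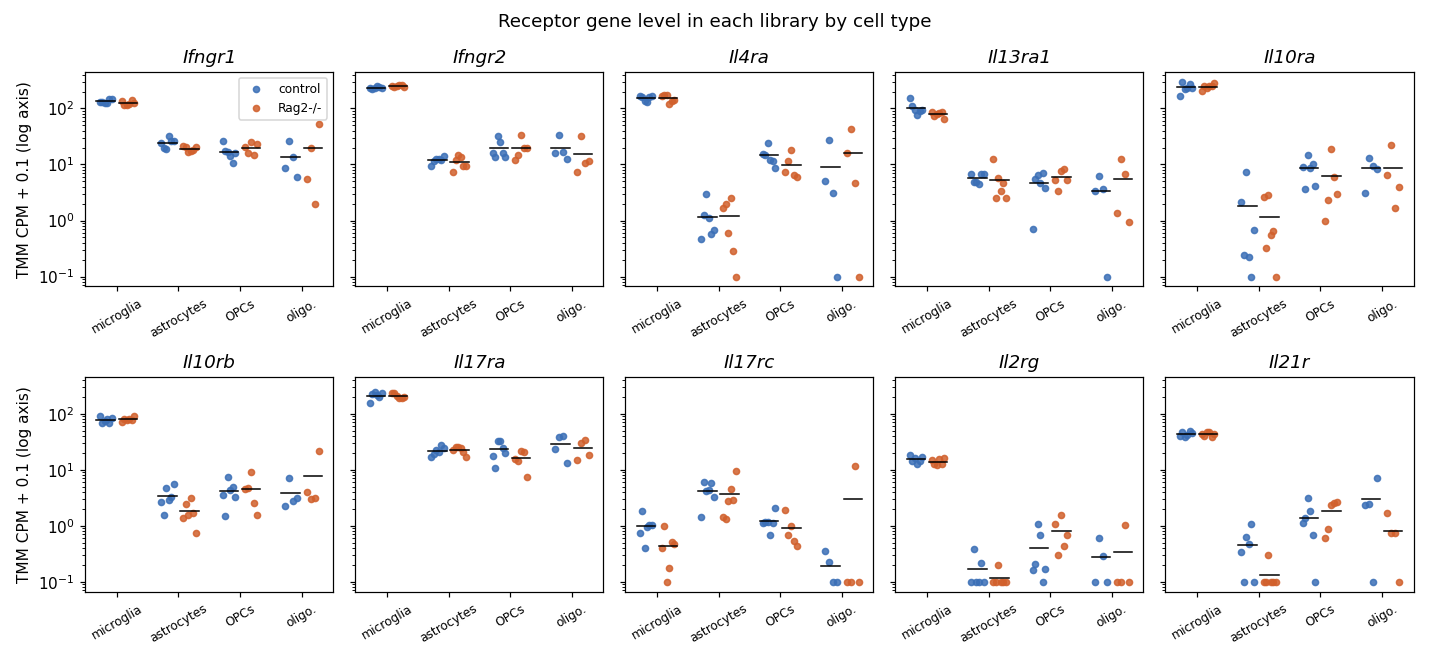
Level of each receptor chain in each library, as TMM CPM plus 0.1 on a log axis, for control (blue) and Rag2-/- (orange) libraries of the 4 cell types, with the mean as a bar (6 libraries a group, 5 for Rag2-/- OPCs and 4 for oligodendrocytes). The 12 microglia libraries sit above all others for every chain but Il17rc, which is highest in astrocytes apart from 1 oligodendrocyte library at 11.6 CPM.

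3 stretches of sequence before the annotated start of a gene are shown, as examples of 3 patterns in these cells. Il2rg had at most 25 counts in any library outside microglia. Ifngr1 was measured in every library, as were Ifngr2, Il10rb and Il17ra, and Il17rc was highest in astrocytes by its mean. Each is the 250 bases before the start of the Ensembl canonical transcript in GRCm39, read 5′ to 3′ on the gene's strand, at chrX:100311862-100312111 (minus strand), chr10:19467447-19467696 (plus) and chr6:113448138-113448387 (plus). Capitals mark the letters CCGGAA, a core that ETS family factors can bind, which were chosen after the promoters had been read.
Il2rg: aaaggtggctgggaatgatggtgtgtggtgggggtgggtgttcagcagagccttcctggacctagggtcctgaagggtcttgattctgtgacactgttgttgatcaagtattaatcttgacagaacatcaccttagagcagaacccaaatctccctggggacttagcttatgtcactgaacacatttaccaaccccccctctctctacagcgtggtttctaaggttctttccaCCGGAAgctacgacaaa
Ifngr1: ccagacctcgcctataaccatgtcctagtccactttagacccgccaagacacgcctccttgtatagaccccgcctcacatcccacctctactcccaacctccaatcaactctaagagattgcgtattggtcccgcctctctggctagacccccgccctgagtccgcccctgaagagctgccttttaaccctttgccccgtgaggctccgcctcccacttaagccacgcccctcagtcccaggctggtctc
Il17rc: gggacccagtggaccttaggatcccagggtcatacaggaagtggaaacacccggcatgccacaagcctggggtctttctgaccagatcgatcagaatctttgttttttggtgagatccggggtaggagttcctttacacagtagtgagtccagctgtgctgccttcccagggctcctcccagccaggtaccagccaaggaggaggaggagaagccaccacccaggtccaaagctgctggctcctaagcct
On either strand CCGGAA stood in 2 of the 10 windows, those of Il2rg and Il10rb, and in 12.4% of 21770 promoter windows of the same length. GAGGAA, the core of the PU.1 site of myeloid genes, stood in 1 of 10, that of Il17ra, and in 22.9% of all windows. TTCNNNGAA, the spaced palindrome that STAT factors bind, stood in 0 of 10 and in 7.70% of all windows.

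Both chains of the IFN-γ receptor were present in every library of every cell type. Ifngr1 (ENSMUSG00000020009, chr10:19467697-19485977), the ligand-binding chain, had a lowest, median and highest level of 123, 131 and 146 CPM in control microglia and of 114, 123 and 144 CPM in Rag2-/- microglia. In astrocytes the corresponding values were 18.6, 25.1 and 32.0 CPM in controls and 16.5, 18.99 and 21.3 CPM in Rag2-/- mice. Control OPCs had 10.6, 16.1 and 25.7 CPM, and the Rag2-/- OPCs of pairs 1, 2, 3, 4 and 6 had 20.3, 16.2, 25.5, 14.97 and 22.99 CPM. Astrocytes and OPCs overlapped in both genotypes, and oligodendrocytes spread most. Their libraries of pairs 1, 3, 5 and 6 had 8.59, 25.9, 13.4 and 5.97 CPM in controls and 5.36, 19.8, 1.89 and 51.9 CPM in Rag2-/- mice. The highest of them lay below the lowest microglia library. In control mice Ifngr1 was 2.49 ± 0.26 (SE) higher in microglia than in astrocytes on the log2 scale, which was the smallest of the 9 gaps to astrocytes (adjusted p = 1.51e-08, edgeR). It was higher in astrocytes than in oligodendrocytes by 0.87 ± 0.29 (adjusted p = 0.0232, edgeR), 1 of 2 chains so called beside 17.1% of all genes, and that call was lost without any of 3 single libraries (astrocyte control 4, oligodendrocyte control 1 or 6).

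Ifngr2 (ENSMUSG00000022965, chr16:91343906-91362512), the chain that completes the IFN-γ receptor, had 221, 235 and 252 CPM in control microglia and 239, 251 and 267 CPM in Rag2-/- microglia as lowest, median and highest. Astrocytes had 9.22, 12.1 and 13.9 CPM in controls and 7.15, 10.6 and 14.6 CPM in Rag2-/- mice. Every astrocyte library thus held far less than the lowest microglia level. Control OPCs had 13.2, 16.1 and 32.1 CPM, Rag2-/- OPCs 11.7, 14.7, 34.0, 19.7 and 19.6 CPM. Oligodendrocytes had 15.8, 32.9, 16.3 and 12.2 CPM in controls and 7.29, 32.8, 10.7 and 11.3 CPM in Rag2-/- mice. The highest library of OPCs and of oligodendrocytes was that of pair 3 in both genotypes, the pair with the most microglia marker RNA, and the part of that RNA in these levels was not tested. Ifngr2 was lower in control astrocytes than in OPCs by 0.63 ± 0.22 on the log2 scale (adjusted p = 0.0324, edgeR), beside 17.4% of all genes. It was lower than in oligodendrocytes by 0.67 ± 0.25 (adjusted p = 0.0383, edgeR), beside 20.5%. Neither call held once the libraries of pair 3 were left out. In CPM of total counts the control means were 12.0 in astrocytes, 12.6 in oligodendrocytes and 24.8 in OPCs, so the gap to oligodendrocytes depended on the scaling.

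The IL-4 receptor α chain was lowest in astrocytes by its mean, as Ifngr2 was in control mice. Il4ra (ENSMUSG00000030748, chr7:125151079-125182844) had 130.3, 159.7 and 167 CPM in control microglia and 120.4, 153 and 177 CPM in Rag2-/- microglia. In astrocytes it had 0.364, 0.784 and 2.81 CPM in controls and 0, 1.04 and 2.44 CPM in Rag2-/- mice, which is 0 to 26 counts. Control OPCs had 8.73, 13.5 and 24.2 CPM, and Rag2-/- OPCs had 7.20, 11.6, 17.9, 6.33 and 5.84 CPM. No astrocyte library reached the lowest OPC library. In oligodendrocytes of pairs 1, 3, 5 and 6 it had 4.98, 27.2, 3.03 and 0 CPM in controls and 15.6, 43.5, 4.56 and 0 CPM in Rag2-/- mice. Both littermates of pair 6 were at 0 counts and both of pair 3 were highest. The border macrophage list was also highest in pair 3 (162 and 138 summed CPM in control and Rag2-/-) and next in pair 1. In Rag2-/- mice it was not lowest in pair 6 (48.8, against 32.5 in pair 5). The microglia list (1213 and 1142) and the OPC list (737 and 1094) were highest in pair 3 too, and the OPC list was lowest in pair 6 (208 and 198). Whether any of these cells carried the Il4ra RNA was not tested. Control astrocytes were lower than OPCs by 3.72 ± 0.63 (log2, adjusted p = 7.07e-05, edgeR), 1 of 3 chains called lower there beside 17.4% of all genes, and lower than oligodendrocytes by 3.00 ± 0.68 (adjusted p = 0.00129), 1 of 4 beside 20.5%. In Rag2-/- mice 4 chains were called lower in astrocytes than in oligodendrocytes (Il4ra, Il10ra, Il10rb and Il21r, beside 19.2% of all genes) and 4 lower than in OPCs (Il4ra, Il10ra, Il2rg and Il21r, beside 13.9%). By total gene counts the share of called genes that were higher in astrocytes moved from 45.39% to 75.67% against oligodendrocytes and from 43.76% to 21.11% against OPCs in control mice, and from 51.61% to 74.72% and from 45.57% to 18.13% in Rag2-/- mice.

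Il13ra1 (ENSMUSG00000017057, chrX:35375461-35435331), which completes the IL-13 receptor, had 77.1, 94.2 and 153 CPM in control microglia and 65.6, 81.7 and 87.6 CPM in Rag2-/- microglia. Astrocytes had 4.38, 5.68 and 6.67 CPM in controls and 2.41, 3.88 and 12.4 CPM in Rag2-/- mice. Control OPCs had 0.612, 4.99 and 6.98 CPM and Rag2-/- OPCs 5.21, 3.30, 7.47, 8.04 and 5.25 CPM. The 3 macroglial types overlapped. Oligodendrocytes had 3.24, 6.19, 3.60 and 0 CPM in controls and 1.29, 12.51, 6.76 and 0.839 CPM in Rag2-/- mice. No contrast among astrocytes, OPCs and oligodendrocytes called Il13ra1 in either genotype.

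Of the IL-10 receptor, both chains set microglia apart, and Il10ra more so. Il10ra (ENSMUSG00000032089, chr9:45165132-45180563), which binds IL-10, had 166, 234 and 302 CPM in control microglia and 207, 251 and 286 CPM in Rag2-/- microglia. Astrocytes had 0, 0.357 and 7.36 CPM in controls and 0, 0.500 and 2.74 CPM in Rag2-/- mice. In both genotypes the astrocyte library with the most Il10ra was that of pair 3. Control OPCs had 3.53, 8.85 and 14.97 CPM, and Rag2-/- OPCs had 0.886, 2.18, 18.7, 5.99 and 2.92 CPM. Oligodendrocytes had 2.99, 13.2, 9.28 and 8.11 CPM in controls and 6.32, 22.3, 1.57 and 3.92 CPM in Rag2-/- mice. Pair 3 was highest in each of these groups too. Il10rb (ENSMUSG00000022969, chr16:91203012-91224600) had 68.1, 77.7 and 90.2 CPM in control microglia and 71.9, 78.8 and 89.5 CPM in Rag2-/- microglia, and between 0.644 and 9.17 CPM in every astrocyte and OPC library. Oligodendrocytes had 2.12, 7.10, 2.65 and 3.06 CPM in controls and 3.86, 2.94, 2.98 and 21.3 CPM in Rag2-/- mice, so that 1 library stood apart. Of the exonic bases of Il10rb 27.9% lie in Gm21970 on the same strand, and its level is uncertain to the extent that read pairs there met both genes.

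Outside microglia the common γ chain was at or near 0, and the IL-21 receptor was low. Il2rg (ENSMUSG00000031304, chrX:100307984-100311861) had 12.50, 15.1 and 18.4 CPM in control microglia and 12.0, 13.7 and 16.1 CPM in Rag2-/- microglia, and was the lowest of the 9 there. Astrocyte libraries held 0 to 2 counts of it, OPC libraries 0 to 25 and oligodendrocyte libraries 0 to 6. Il21r (ENSMUSG00000030745, chr7:125202601-125232756) had 37.6, 43.2 and 48.9 CPM in control microglia and 38.6, 43.5 and 47.6 CPM in Rag2-/- microglia. Astrocytes had 0 to 8 counts, OPCs 0 to 70 and oligodendrocytes 0 to 45. Its highest level was 3.05 CPM in control OPCs and 6.89 CPM in control oligodendrocytes, where the mean was 2.86 CPM. A count of 0 at these depths shows that the RNA was not detectable, not that it was absent.

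The IL-17 receptor divided between cell types. Il17ra (ENSMUSG00000002897, chr6:120440104-120464520), the chain common to several IL-17 receptors, had 152, 219 and 245 CPM in control microglia and 188, 202 and 237 CPM in Rag2-/- microglia. Astrocytes had 16.6, 21.2 and 27.8 CPM in controls and 16.6, 23.8 and 25.6 CPM in Rag2-/- mice. Control OPCs had 10.5, 22.2 and 33.0 CPM, and Rag2-/- OPCs had 15.7, 14.2, 21.4, 20.4 and 7.32 CPM. Outside microglia its levels overlapped between all types. Oligodendrocytes had 23.02, 39.1, 39.2 and 13.2 CPM in controls and 15.01, 30.1, 34.2 and 18.5 CPM in Rag2-/- mice. In Rag2-/- mice it was called lower in OPCs than in oligodendrocytes (log2 -0.70 ± 0.25, adjusted p = 0.0409, edgeR, 1 of 10 beside 11% of all genes) and higher in astrocytes than in OPCs (0.65 ± 0.23, adjusted p = 0.0387, 1 of 10 beside 11.7%). The first call was lost with the mouse as a block and both were lost without pair 3.

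Il17rc (ENSMUSG00000030281, chr6:113448388-113460103), which joins IL17RA to form the receptor of IL-17A and IL-17F, was the only one of the 10 with more RNA in astrocytes than in microglia. Astrocytes had 1.33, 4.18 and 5.97 CPM in controls and 1.20, 2.71 and 9.55 CPM in Rag2-/- mice, from 11 to 89 counts. Microglia had 0.299, 0.890 and 1.70 CPM in controls and 0, 0.329 and 0.905 CPM in Rag2-/- mice, from 0 to 17 counts. All but 1 of the control astrocyte libraries lay above all control microglia libraries, and in Rag2-/- mice the groups did not overlap. Microglia were lower than astrocytes by 2.15 ± 0.54 on the log2 scale in controls (adjusted p = 0.00133, edgeR) and by 3.70 ± 1.15 in Rag2-/- mice (adjusted p = 0.00793). Control OPCs had 0.577, 1.05 and 1.95 CPM and Rag2-/- OPCs 1.83, 0.594, 0.882, 0.428 and 0.333 CPM. In control mice astrocytes were higher than OPCs by 1.83 ± 0.53 (adjusted p = 0.0102, edgeR, 1 of 10 beside 13.5% of all genes), and OPCs were higher than oligodendrocytes by 3.19 ± 0.78 (adjusted p = 0.00369, 1 of 10 beside 14.3%).

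Oligodendrocytes held almost no Il17rc apart from 1 library. Their libraries of pairs 1, 3, 5 and 6 had 0.249, 0.129, 0 and 0 CPM in controls and 0, 0, 11.6 and 0 CPM in Rag2-/- mice, where the third library had 74 counts and the others 0. That library decided the direction of 2 contrasts of Rag2-/- mice. Without it Il17rc was called higher in OPCs than in oligodendrocytes by 6.39 ± 1.72 (adjusted p = 0.00967, edgeR) in place of -0.75 ± 1.46, and higher in microglia than in oligodendrocytes by 4.83 ± 1.80 (adjusted p = 0.0289) in place of -2.66 ± 1.22. Since oligodendrocytes then had 0 counts in every library, the size of these differences depends on the prior count of the fit. Of the exonic bases of Il17rc 16.4% lie opposite another annotated gene that was not counted.

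To set the low levels of the other glia beside the microglia RNA they held, each receptor's level was divided by its mean level in microglia of the same genotype, in CPM of total counts, and compared with the same percentage for the 8 microglia markers. In control astrocytes the markers stood at 0.760% to 2.17% of their microglia level. Ifngr1 was at 15.5% ± 3.19 (SD, n = 6), Il17ra at 8.69% ± 1.81, Il13ra1 at 4.74% ± 0.915, Ifngr2 at 4.31% ± 0.706 and Il10rb at 3.67% ± 1.67. These 5 chains lay above every marker, and the first 4 did so in 6 of 6 libraries. Il17rc did too, but its microglia libraries held only 4 to 17 counts in controls and 0 to 9 in Rag2-/- mice. Its percentage therefore cannot be read beside those of the microglia markers, here or in the other cell types. Il4ra at 0.595%, Il10ra at 0.585%, Il21r at 0.685% and Il2rg at 0.399% lay below every marker. In Rag2-/- astrocytes the same 4 lay below and 5 of the same 6, Il17rc included, above, Il10rb at 1.77% being within the range.

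In control OPCs the markers stood higher, at 4.09% to 6.54%. Ifngr1 at 13.8% ± 4.198 (SD, n = 6), Il17ra at 11.9% ± 4.34, Il4ra at 10.5% ± 3.63, Ifngr2 at 8.95% ± 3.20 and Il17rc lay above every marker, and Il10ra, Il2rg and Il21r below. Il4ra lay above all markers in 6 of 6 control OPC libraries and, by its mean, below all in astrocytes. In Rag2-/- OPCs, with markers at 4.14% to 5.53%, it was at 6.90% ± 3.56 (SD, n = 5) and above in 3 of 5 libraries. By their means 8 chains lay above there, but only Ifngr1, Ifngr2 and Il17rc did so in 5 of 5 libraries, the last beside a very low microglia level. Il13ra1 lay above in 4 of 5, Il4ra, Il10rb and Il17ra in 3, and Il2rg in 1. Control oligodendrocytes, with markers at 2.71% to 6.10%, had 1 chain above, Il17ra at 7.32% ± 3.74 (SD, n = 4), and in 3 of 4 libraries. In Rag2-/- oligodendrocytes 4 chains lay above the markers by their means but none in more than 2 of 4 libraries, and 2 remained above by the median over libraries. These comparisons are a description, without a test.

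**Figure D2:**
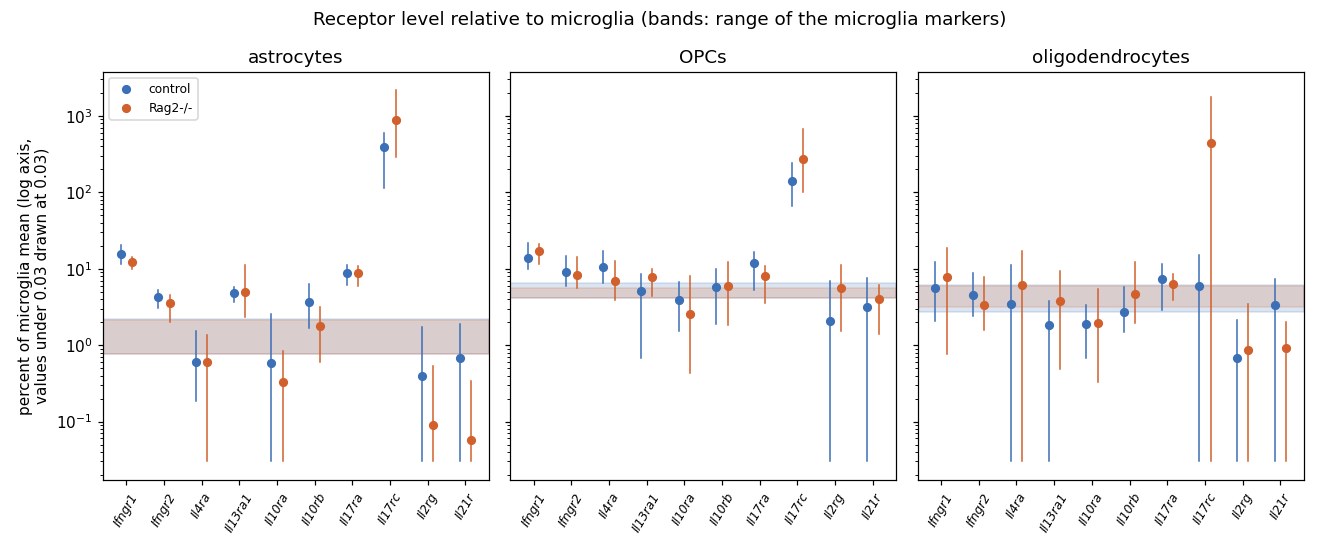
Level of each receptor chain in astrocytes, OPCs and oligodendrocytes as a percent of its microglia mean, on a log axis with values under 0.03 drawn at 0.03. Points are means of 4 to 6 libraries, lines run from the lowest to the highest library, and bands span the 8 microglia markers of each genotype. In control astrocytes Ifngr1 at 15.5% and Il17ra at 8.69% stand above the band and Il4ra at 0.595% below it.

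Chains that form 1 receptor were not matched in the same way in each cell type. In RPKM, control microglia held 47.0 of Ifngr1 and 52.2 of Ifngr2, a ratio of 0.899 that ranged from 0.788 to 0.988 over libraries. Control astrocytes held 8.56 and 2.64, a ratio of 3.24 with a range of 2.37 to 4.195, so that astrocytes and microglia did not overlap in it. For IL-17, control microglia held 24.1 RPKM of Il17ra and 0.197 of Il17rc, and control astrocytes held 2.47 and 0.900. The ratio was 122 in microglia and 2.75 in astrocytes, with library ranges of 68.4 to 425 and 1.67 to 6.44. In these microglia libraries it rests on 4 to 17 counts of Il17rc. Control OPCs held 2.63 and 0.246 RPKM, in between.

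RNA of both partners of Il4ra was present in microglia, where control libraries held 15.3 RPKM of Il4ra, 6.43 of Il2rg and 21.7 of Il13ra1. In control astrocytes Il13ra1 was at 1.19 RPKM and Il4ra at 0.107, a ratio of Il4ra to Il13ra1 of 0.0896 against 0.706 in microglia. Control OPCs held 1.45 RPKM of Il4ra and 0.973 of Il13ra1 but 0.126 of Il2rg. For IL-10, control microglia held 54.6 RPKM of Il10ra and 12.7 of Il10rb, and for IL-21 they held 12.8 of Il21r. No library outside microglia held as much of any of these 6 chains as the lowest microglia library.

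**Figure D3:**
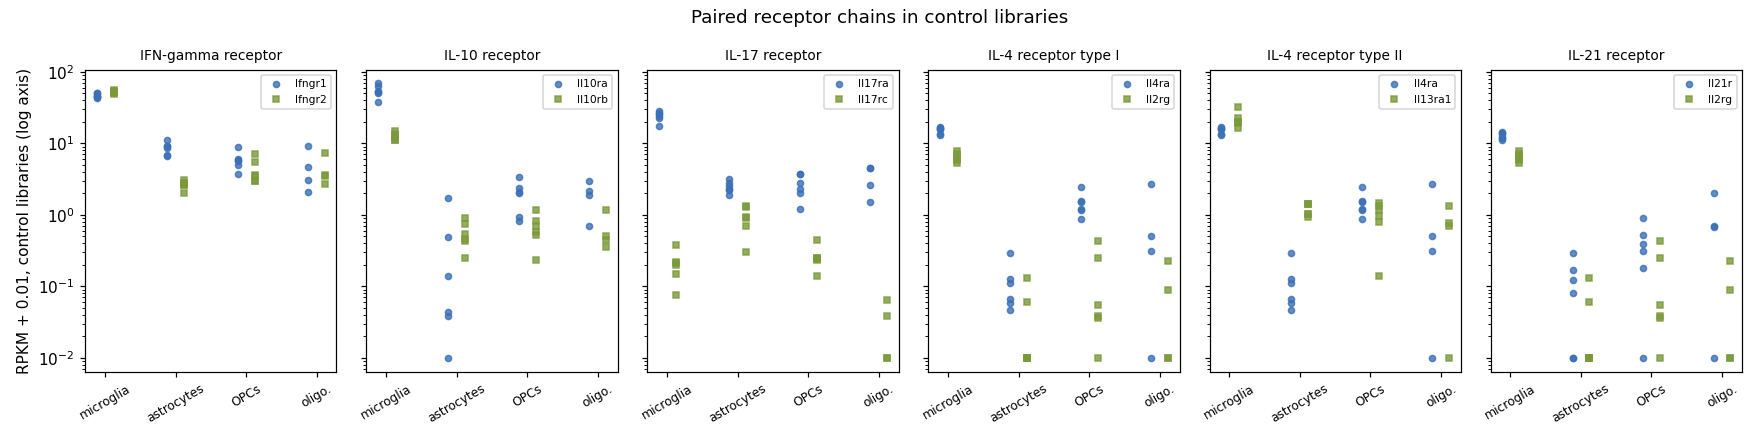
Paired chains of 6 receptors in control libraries, as RPKM plus 0.01 on a log axis, each point 1 library (6 for microglia, astrocytes and OPCs, 4 for oligodendrocytes). The 2 chains of the IFN-γ receptor lie together in microglia (47.0 and 52.2 RPKM) and apart in astrocytes (8.56 and 2.64), while Il17ra and Il17rc lie farther apart in microglia than in astrocytes.

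Whether the loss of lymphocytes altered the receptors was asked within each cell type, with sex in the model. No receptor chain was called between Rag2-/- and control mice. Of the 10, 9 passed the filter on low counts in microglia, 9 in OPCs, 6 in astrocytes and 8 in oligodendrocytes, and the others were fitted without it. Calls were rare among all genes too, at 0.00667% in microglia, 0.00592% in OPCs, 0.00679% in astrocytes and 0% in oligodendrocytes (0 of 13802 genes by edgeR, 467 at an unadjusted p under 0.05, and 206 by DESeq2 on all genes). In microglia the log2 differences of the 9 lay between -0.35 and 0.09, with standard errors of 0.09 to 0.16, so that their levels were measured closely. Errors were wider elsewhere, up to 1.59 in oligodendrocytes for a chain that passed the filter. In simulated data the oligodendrocyte test recovered 2.15% of genes changed by 1 on the log2 scale. A lack of calls there thus does not show a lack of change.

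Il13ra1 was the member nearest to a call in microglia, at -0.35 ± 0.14 on the log2 scale (unadjusted p = 0.019, adjusted p = 0.999, edgeR), and was lower in 5 of 6 Rag2-/- mice than in the littermate. The control library of pair 1, at 153 CPM, lay above all others. In OPCs Il17ra differed by -0.55 ± 0.26 (unadjusted p = 0.048, adjusted p = 1.00, edgeR) and was lower in 4 of 5 pairs. In astrocytes Ifngr1 differed by -0.36 ± 0.17 and was lower in 5 of 6 pairs (unadjusted p = 0.049, adjusted p = 1.00, edgeR). Il17rc in microglia, below the filter, was lower in 6 of 6 pairs, at -1.83 ± 0.83 (unadjusted p = 0.026, adjusted p = 0.925, edgeR), from 4 to 17 counts in controls and 0 to 9 in Rag2-/- mice. Il21r in astrocytes, also below the filter, was lower in 4 pairs and higher in 0 of 6, at -2.99 ± 1.41 (unadjusted p = 0.034, adjusted p = 0.905, edgeR), from 0 to 8 counts in controls and 0 to 2 in Rag2-/- mice. These 5 were the differences with an unadjusted p under 0.05. Of all genes past the filter, 2.91% in microglia, 4.02% in OPCs, 2.87% in astrocytes and 3.38% in oligodendrocytes passed that threshold (edgeR). That share was not taken for the fit without the filter. None of the 5 differences passed the correction, and in none did the 2 groups separate.

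**Figure D4:**
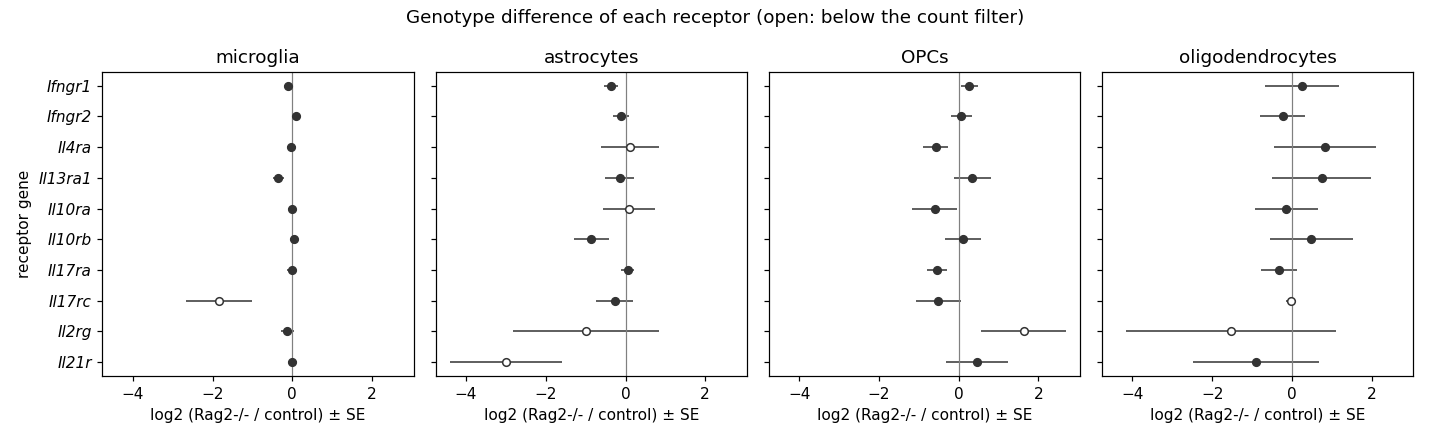
Log2 difference between Rag2-/- and control libraries for each receptor chain in each cell type, with an approximate standard error derived from the F statistic. Open points are chains below the filter on low counts. For Il17rc in oligodendrocytes, at 0 counts in 5 of 8 libraries, the drawn -0.016 ± 0.12 does not measure the spread between libraries. Points for microglia lie between -0.35 and 0.09 for the 9 chains that passed, and no difference passed the correction.

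A joint fit of all 43 libraries asked whether the genotype difference varied between cell types. It called 0 of 10 receptor chains, beside 0.248% of all genes, and the smallest unadjusted p-values were 0.0092 for Il17rc, 0.020 for Il21r and 0.036 for Il10rb (adjusted p = 0.257, 0.327 and 0.399, edgeR). This rested on the filter: without it the fit called these 3 chains (adjusted p = 0.0347, 0.00186 and 0.0190, edgeR), beside 2.57% of all genes. In Rag2-/- oligodendrocytes Il17rc had 74 counts in 1 library and 0 in the rest. Il10rb had 21.3 CPM in 1 library of that group (next 3.86). Il21r had 0 to 8 counts in control astrocytes and 0 to 2 in Rag2-/- ones. The part of these values in the 3 calls was not tested. Between female and male mice edgeR called 0 of the chains that passed the filter in any cell type, beside 0.0467% of all genes in microglia, 0.0296% in OPCs, 0.0407% in astrocytes and 0.0362% in oligodendrocytes. Il10ra in astrocytes, which failed the filter, was lower in females by 3.47 ± 0.83 on the log2 scale in the fit without it (adjusted p = 0.0145, edgeR), which called 0.351% of all genes. It had 0 to 6 counts in female and 1 to 68 in male libraries. That call was lost with DESeq2 (adjusted p = 0.0992) and without the libraries of pair 3, both male (-2.84 ± 1.09, adjusted p = 0.507, edgeR). The summed microglia markers were 102 to 124 CPM in female and 73.6 to 304 CPM in male astrocyte libraries, highest in pair 3, and their part in the difference was not tested.

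The rest of the pathway was examined with lists of genes. Of 15 genes of JAK, STAT and IL-17 signalling, 14 passed the filter across control libraries, and 11 were called higher in microglia than in oligodendrocytes, 9 than in OPCs and 10 than in astrocytes, with 1 lower in each. Of all tested genes 29%, 28.4% and 29.8% were called higher in these contrasts and 29.8%, 32.4% and 31.3% lower. Of 12 signalling inhibitors 10 were called higher in microglia in each of the 3 contrasts, and 1 lower than in oligodendrocytes and in astrocytes. By RPKM the highest signalling genes of control microglia were Jak1 (37.4), a kinase of IFN-γ, IL-4 and IL-10 receptors, Tab2 (37.4) and Jak2 (29.1), the kinase bound to IFNGR2. Control astrocytes held 8.95 RPKM of Jak1, so that kinase RNA was present there as well. The inhibitor Socs3 was at 73.7 RPKM in microglia, 20.4 in OPCs, 9.48 in oligodendrocytes and 6.84 in astrocytes. It was the highest of the inhibitors only in OPCs. Tnfaip3 was highest in microglia (121 RPKM), and Ptpn11 in oligodendrocytes (36.0) and astrocytes (12.9).

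For genes that these cytokines induce elsewhere, the same shares of all genes stand beside each count. Of 14 IFN-γ response genes 13 passed the filter, and 11 were called higher in microglia than in oligodendrocytes and 10 than in OPCs and astrocytes, with none lower. Of 11 IL-17 response genes 8 passed, and 7, 8 and 6 were called higher. Of 7 IL-10 response genes 5, 6 and 6 were called higher and 1 lower in each contrast. Of 10 IL-4 and IL-13 response genes 7 passed and 5 were called higher in each contrast, with 1 lower than in astrocytes. Cxcl10, a chemokine induced by interferons, was at 181 RPKM in control microglia and 1.12 in astrocytes, and Nfkbiz, a target of IL-17 signalling and of other routes to NF-κB, at 111 and 4.96. Of 14 lymphocyte cytokine genes 3 passed the filter, and Ifng itself had 0 to 3 counts in control microglia libraries. No gene of the 8 pathway lists that passed the filter was called by genotype in any cell type.

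Over the 43 libraries, the genes whose levels followed each receptor most closely were given by Pearson's r of log2(CPM + 1), a description that largely reflects the contrast between microglia and other libraries. Il10ra was most like Inpp5d (r = 0.988) and Dock2 (0.984), Il2rg like Slamf8 (0.987) and Or5v1b (0.982), and Ifngr2 like Gmfg (0.986) and Hvcn1 (0.984). Il21r was most like Mir142hg (0.973) and Rbpj-ps3 (0.970), Il17ra like Ctsb (0.970) and Srgap2 (0.970), and Il10rb like ENSMUSG00000110235 (0.971) and Hlx (0.967). Il4ra was most like Pmepa1 (0.963) and H2-D1 (0.963), Il13ra1 like Herpud1 (0.963) and Hexa (0.956), and Ifngr1 like Sbno2 (0.945) and Btg1 (0.944). Il17rc had the weakest likeness, to Gm14964 (0.807) and D730045A05Rik (0.794).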

How the data were processed

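RNA was sequenced from 43 immunopanned cortical samples. Per the study's methods and labels, the authors amplified cDNA, aligned read pairs to GRCm39 with STAR 2.7.8a and counted them per gene with HTSeq, and deposited whole-number counts with no normalization. Read pairs on no gene (33.5% to 52.0% per library) were left out. Amplified read pairs are not independent molecules. From the counts, edgeR 4.0.16 in R 4.3.3 (TMM, filterByExpr with a minimum count of 10 and total of 15, quasi-likelihood test, adjusted p under 0.05) tested genotype and sex within each cell type, cell types within each genotype, and their interaction, over all genes. Standard errors of edgeR differences were taken as the size of the log2 difference divided by the square root of its F statistic. They are approximate and can mislead at low counts. Gene names and coordinates came from GENCODE M39. Steps were tested on simulated data. Of genes changed by 1 on the log2 scale, the genotype test recovered 61.5% in microglia, 55.6% in astrocytes, 34.4% in OPCs and 2.15% in oligodendrocytes. Of genes changed by 2 it recovered 89.8%, 89.7%, 84% and 32.3%. The 10 genes and the lists were chosen with earlier results of these data known. All 10 members were named, with list genes by RPKM rank and the 2 genes most like each member.

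The paper describes the mice as littermate pairs, which the labels number. In each cell type the 2 libraries of a pair deviated together from their group means, with a mean correlation over genes of 0.0865 (microglia), 0.0889 (OPCs), 0.111 (oligodendrocytes) and 0.135 (astrocytes), against -0.0359 to -0.0176 for libraries of different pairs. Libraries of different cell types from the same mouse had a mean correlation of 0.0331 in controls and 0.0291 in Rag2-/- mice. For different mice it was -0.00657 and -0.00570. The main fits used neither pair nor mouse, so they treated libraries of 1 mouse as independent. Alternatives were other scalings, no filter, DESeq2 1.42.0, limma 3.58.1 voom, no sex term, replicate blocks, Rag2+/- controls alone and each library left out. Leaving out pair 3, also without the filter for sex in astrocytes, was added after seeing the data.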

Additional observations from a re-analysis of the deposited data

Results flagged for a closer look

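In 11 of 80 groups of libraries tested, the highest library lay far from the others by Dixon's test at the 95% level. That level stands for about 1 in 20 groups only where values are normally distributed, which low counts are not. Where all other libraries are at 0, any count passes, so no rate by chance can be set beside the 11. Pair 3 gave 6 of the 11, which were Ifngr2 in Rag2-/- oligodendrocytes (32.8 CPM, next 11.3), Il4ra in control astrocytes (2.81, next 1.17), Il10ra in control astrocytes (7.36, next 2.06), Il10ra in Rag2-/- OPCs (18.7, next 5.99), and Il2rg (0.0977) and Il21r (0.195) in Rag2-/- astrocytes, the last 2 from 1 and 2 counts beside libraries at 0. Its libraries also held the most microglia marker RNA in these cell types, and its part in the values was not tested. The Rag2-/- oligodendrocytes of pair 5 gave Il17rc (11.6 CPM, 74 counts) and Il2rg (0.943 CPM, 6 counts) beside 3 libraries at 0, and those of pair 6 gave Il10rb (21.3 CPM, next 3.86). The others were Il13ra1 in Rag2-/- astrocytes of pair 1 (12.4 CPM, next 5.57) and Il17rc in control OPCs of pair 6 (1.95 CPM, next 1.07).

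Ifngr2 had differences of opposite sign between genotypes in 2 cell types, neither of which passed the test. It was higher in the Rag2-/- mouse of 6 of 6 pairs in microglia, by a mean of 14.99 CPM, and lower in 4 of 4 pairs in oligodendrocytes, where the mean difference was -3.78 CPM. The fitted log2 differences were 0.09 ± 0.09 (unadjusted p = 0.324, adjusted p = 0.999) and -0.24 ± 0.56 (unadjusted p = 0.683, adjusted p = 0.998, edgeR), and the second changed sign in 2 of 16 alternatives. The joint fit gave an unadjusted p of 0.743 for a difference between cell types (edgeR).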

How the results depend on the processing

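The 9 chains called higher in microglia were called higher under all 29 alternatives of each control contrast and all 28 of each Rag2-/- contrast, among chains with an adjusted p (DESeq2 gave none for Il10ra in controls). Of 624 alternative values of genotype differences none passed the threshold, while 62 differed in sign. OPCs against oligodendrocytes was the least stable contrast. In controls 1 chain was called, but 6 when scaled by total gene counts, 3 without the filter, 3 without pair 3, and 1 to 3 with single libraries left out (3 without the oligodendrocyte control of pair 3). In Rag2-/- mice 1 was called, but 4 by total gene counts, 0 with the mouse as a replicate block, and 0 to 2 with single libraries left out (0 without astrocyte or microglia 5, microglia 6, or OPC 2 or 6, and 2 without oligodendrocyte 1, 5 or 6). No other call count moved by over 1.5 times under a block. By total gene counts Ifngr2 in controls became 1.00 in place of -0.03 and Il17ra in Rag2-/- mice 0.31 in place of -0.70 (log2). That scaling moved the median of all genes by 1.07 and 1.01 there, and the share of calls that were higher from 53.2% to 93.7% and from 60.4% to 94.2%. With single libraries left out, Il17rc in Rag2-/- mice ranged from -1.49 to 6.39 (OPCs) and from -3.26 to 4.83 (microglia) against oligodendrocytes, and reversed without oligodendrocyte library 5. Without the filter, 1 chain was called by sex in astrocytes and 3 by the interaction, in place of 0, and all-gene calls by genotype rose from 0, 1, 1 and 1 to 14, 90, 30 and 9 in oligodendrocytes, OPCs, astrocytes and microglia. In Rag2-/- oligodendrocytes 2 chains lay above the microglia markers by the median, in place of 4. The cause was not tested. Low counts limit Il2rg and Il21r outside microglia, Il17rc in every cell type, microglia included, and Il4ra and Il10ra in astrocytes.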

Other observations

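Of 22 other chains of lymphocyte cytokine receptors, 14 passed the filter across control libraries. In control mice 7 were called higher and 2 lower in microglia than in oligodendrocytes, 8 higher and 2 lower than in OPCs, and 9 higher and 4 lower than in astrocytes (edgeR). Of all tested genes 29%, 28.4% and 29.8% were called higher and 29.8%, 32.4% and 31.3% lower in these contrasts. The highest of them in control microglia, by length-corrected level, were Csf2rb (10.3 RPKM), the shared chain of the GM-CSF receptor, Csf2ra (8.02), its ligand-binding chain, and Il7r (4.16). In control astrocytes they were Il15ra (3.44 RPKM), which binds IL-15, Csf2ra (2.698) and Il17rd (1.20). Csf2ra was also the highest of the list in control OPCs (4.98 RPKM) and oligodendrocytes (4.17 RPKM).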
